A study of Mus musculus with 3 samples.

Results

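The clustered replication-dependent histone genes of mouse chromosome 13 were examined as 2 stretches of mm9 sequence, called cluster A (21.79 to 22.14 Mb) and cluster B (23.5 to 23.87 Mb), together with every Utf1 peak that overlapped them by at least 1 bp. There were 70 such peaks, 69 of the 152608 peaks listed for biotin-tagged Utf1 and 1 of the 10506 peaks listed for endogenous Utf1, out of 163114 in both lists. Utf1 is a transcription factor of undifferentiated cells that associates tightly with chromatin. Its sites were listed after chromatin immunoprecipitation with sequencing in KH2, an established mouse embryonic stem cell line. The cells were grown in standard serum medium with 15% serum and leukaemia inhibitory factor, and the culture protocol names a feeder layer of irradiated CF1 mouse embryonic fibroblasts. One precipitation was of biotin-tagged Utf1 and one of the endogenous protein, with 1 library each, and the remaining library was whole-cell extract without precipitation, which was not analysed here. Chromatin of all groups was crosslinked for 5 min in 1% formaldehyde. How the tagged protein was introduced and expressed is not stated in the labels. Both precipitations carry the same Utf1 antibody label, although the protocol describes streptavidin beads for the tagged protein, so the lists are called the biotin list and the endogenous list after their tag labels.

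Histones are the proteins around which DNA is wrapped. H2A, H2B, H3 and H4 form the core of the nucleosome, and H1 binds the linker DNA between nucleosomes. The replication-dependent genes for these proteins are short, lack introns, exist in many near-identical copies, and are transcribed together in S phase, when new DNA must be packed. Embryonic stem cells divide fast and spend much of their cycle in S phase. Because the copies resemble each other, a short read can match several of them, and the labels do not state how such reads were placed.

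The gene order of the region was taken from RefSeq on the assembly GRCm38.p6, for names and neighbours only, since its coordinates are not those of mm9. No peak was therefore assigned to a gene. In that order the histone genes formed 2 blocks. The first ran from H2bc13 to H2bc11 and held 24 histone genes, 8 for H2A, 8 for H2B, 5 for H4, 2 for H3 and 1 for H1, interspersed with 31 transfer RNA genes and 9 other genes, among them Zfp184, Pom121l2 and Prss16. The second ran from H4c8 to H1f1 and held 30 histone genes, 7 for H3, 6 each for H2A, H2B and H4 and 5 for H1, with 4 other genes, among them Hfe, and no transfer RNA gene. Each block includes 1 histone pseudogene, H2ac14 in the first and H2ac5-ps in the second. A further pair, H2bc1 and H2ac1, followed H1f1 after 8 other genes and was not counted with the second block. Between the blocks stood 147 genes without a histone among them: 79 of the vomeronasal receptor 1 family and its pseudogenes, 46 transfer RNA genes and 22 others. Vomeronasal receptors are expressed in sensory neurons of the vomeronasal organ.

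Promoters of these genes often held the same short sequences, and 4 of them are shown, the first gene of its class in chromosome order for H1, H2A, H3 and H4, to show the kind of sequence the clusters hold. Each line gives the 250 bases before the annotated start, 5′ to 3′ on the strand of the gene, from RefSeq on GRCm38.p6. H2ac13, H3c10 and H4c11 lie on the + strand and H1f5 on the − strand of chromosome 13. Capitals mark CCAAT and TATAAA on either strand, that is, also as their reverse complements.
H1f5: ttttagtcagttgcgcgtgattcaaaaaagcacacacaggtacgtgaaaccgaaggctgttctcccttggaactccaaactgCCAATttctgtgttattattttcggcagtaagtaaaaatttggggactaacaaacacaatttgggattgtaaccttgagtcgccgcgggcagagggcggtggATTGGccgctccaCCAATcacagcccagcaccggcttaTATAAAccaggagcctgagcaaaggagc
H2ac13: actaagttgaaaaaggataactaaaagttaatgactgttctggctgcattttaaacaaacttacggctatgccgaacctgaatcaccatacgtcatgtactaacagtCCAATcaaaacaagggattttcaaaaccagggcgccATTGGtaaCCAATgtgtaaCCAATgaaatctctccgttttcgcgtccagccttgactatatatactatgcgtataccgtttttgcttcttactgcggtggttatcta
H3c10: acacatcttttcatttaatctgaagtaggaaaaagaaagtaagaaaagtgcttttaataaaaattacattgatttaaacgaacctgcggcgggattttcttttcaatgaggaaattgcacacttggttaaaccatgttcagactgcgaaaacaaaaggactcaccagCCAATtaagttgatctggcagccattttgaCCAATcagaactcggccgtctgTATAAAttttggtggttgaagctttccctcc
H4c11: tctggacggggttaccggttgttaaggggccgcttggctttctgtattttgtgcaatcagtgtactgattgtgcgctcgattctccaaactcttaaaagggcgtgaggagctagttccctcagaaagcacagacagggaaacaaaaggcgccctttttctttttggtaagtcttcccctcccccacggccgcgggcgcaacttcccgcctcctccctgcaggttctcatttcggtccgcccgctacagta
Of 54 histone genes in both blocks, 49 had a promoter in the table. CCAAT, the sequence bound by the factor NF-Y, stood in 41 of the 49 (83.7%) and in 34.1% of the promoters of 26969 other genes. All 6 H1, 12 H2A, 13 H2B and 7 H3 promoters held it, but only 3 of 11 H4 promoters, and the H4c11 sequence above has none. TATAAA stood in 24 of the 49 (49.0%) and in 12.9% of the other promoters. Their median content of G and C was 44.8%, against 52.0% in the other promoters. Of 14 pairs of an H2A and an H2B gene that followed each other in histone order, 11 had a promoter in the table for both genes, and 9 of these 11 lay on opposite strands and were transcribed away from each other, as H2bc13 and H2ac13 are. Such neighbours can share the sequence before their starts. Those of H2bc13 and H2ac13 are reverse complements over most of their length, and the same 4 CCAAT were counted for both genes. The 49 promoters are therefore not all separate sequences, and the other pairs were not examined for this. These letters describe the promoters and were not compared with the peaks.

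Both histone clusters were rich in biotin-Utf1 peaks, and the sequence between them was poor. Cluster A held 29 biotin peaks, or 82.9 per Mb (exact Poisson 95% interval 55.5 to 119), and cluster B held 40, or 108 per Mb (77.2 to 147). The 1360 kb between them also held 29, which is 21.3 per Mb (14.3 to 30.6). The rest of chromosome 13 held 5760 peaks, or 49.5 per Mb (48.2 to 50.7). The intervals of both clusters lay above that level and the interval of the sequence between them below it. Intervals of counts cover counting error only, and no interval here covers the spread between replicates. Nor do they cover the spread along the chromosome, where other stretches as long as cluster A held 0 to 88 peaks (quartiles 6 and 23). With 1 library per group no difference was tested against replicates.

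Peaks covered 49.4 kb of cluster A (14.1%) and 55.1 kb of cluster B (14.9%), against 2.54% of the sequence between them and 6.12% of the rest of the chromosome. The 350 kb before cluster A were covered to 5.45% by 16 peaks, and the 370 kb after cluster B to 3.38% by 11 peaks. The edges of the windows were not empty. The first biotin peak inside cluster A began 3.38 kb from its edge with 37 tags and a fold of 2.76, and the nearest one outside ended 23.1 kb before it with 30 tags and a fold of 3.62. At the other edge a peak with 236 tags and a fold of 5.03 lay 3.97 kb inside and one with 189 tags and a fold of 6.2 lay 1.47 kb outside. At the start of cluster B a peak with 270 tags and a fold of 4.47 lay 2.23 kb inside and one with 168 tags and a fold of 3.34 lay 5.17 kb outside. At its end a peak with 109 tags and a fold of 9.44 lay 4.72 kb inside and one with 34 tags and a fold of 4.31 lay 0.213 kb outside.

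**Figure D1:**
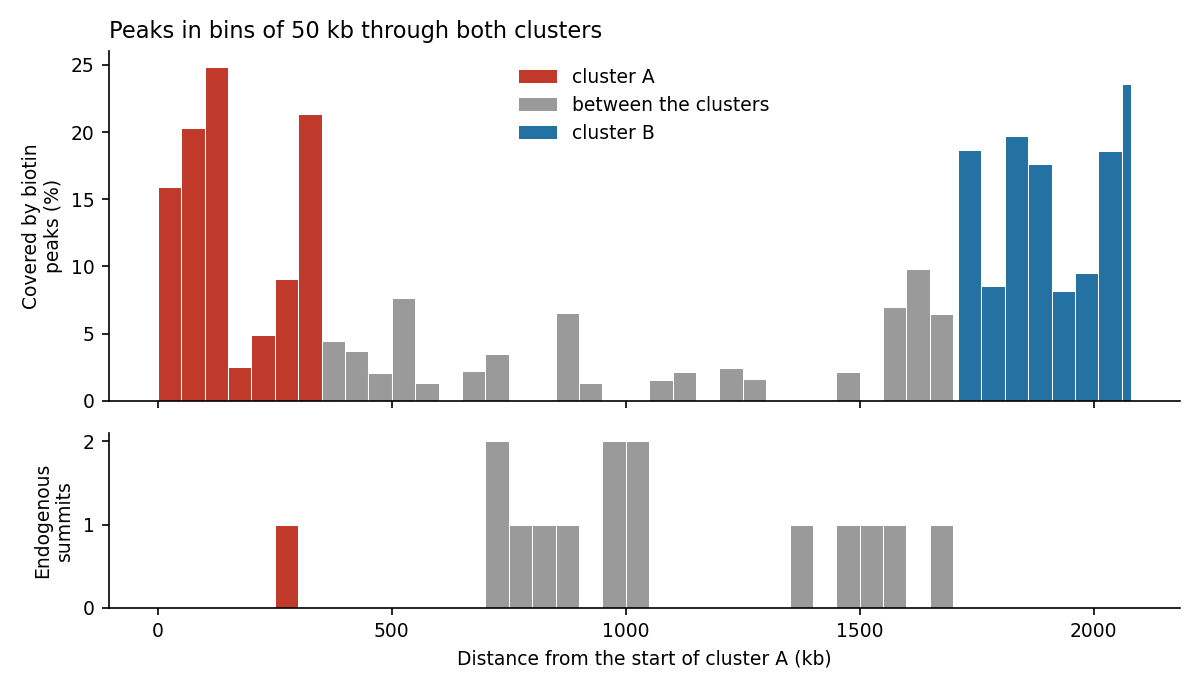
Share of each 50 kb bin covered by biotin peaks (upper panel, percent) and number of endogenous summits per bin (lower panel), by distance from the start of cluster A in kb; the last bin of cluster B is 20 kb long and a remainder of under 20 kb before cluster B is left out. Bins of both clusters are covered to between 2.47 and 24.8%, those between the clusters to at most 9.79%, and only 1 endogenous summit falls in a cluster.

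Among windows of the same length tiled along chromosome 13, the clusters were in the upper part without being the most covered. Cluster A was covered more than 300 of 331 other windows (90.6%, exact Clopper-Pearson interval 87.0 to 93.5), whose median was 3.78% (quartiles 1.91 and 7.91). Cluster B was covered more than 289 of 313 (92.3%, 88.8 to 95.0), with a median of 4.10%. The windows tile the chromosome and neighbours can be alike, while these intervals take each window as a separate draw, so they are only a rough guide. The most covered window of each length reached 40.0 and 37.2%. Counted by peaks, 269 of 331 windows had fewer summits than cluster A and 275 of 313 fewer than cluster B. Counted by the tags of peaks per kb of window, the clusters ranked higher, with 13.2 tags per kb above 318 of 331 windows for A and 12.8 above 299 of 313 for B. The 3 windows of each length that fit between the clusters were covered to 1.10 to 3.05% and 1.04 to 3.86%.

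Within the clusters, the number of peaks varied by place, with some long intervals without any. Whether this differs from random placement was not tested. In cluster A, the first 150 kb held 16 of the 29 summits and the last 50 kb another 7, and these bins of 50 kb were covered to 15.9 to 24.8%. From 150 to 300 kb there were 6 summits, in bins covered to 2.47, 4.90 and 9.07%. The longest interval without a biotin peak, 61.7 kb from 21926687 to 21988394, opened this sparse stretch, followed by one of 35.8 kb at 21989630 to 22025388 and one of 27.8 kb at 22038018 to 22065803. In cluster B summits were spread over the whole window. Its 50 kb bins held 7, 2, 8, 6, 4, 3 and 7 summits in order, with 3 more in the last 20 kb. Its 3 longest intervals without a peak were 39.9 kb at 23557586 to 23597463, 35.7 kb at 23739125 to 23774872 and 35.0 kb at 23678348 to 23713379.

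**Figure D2:**
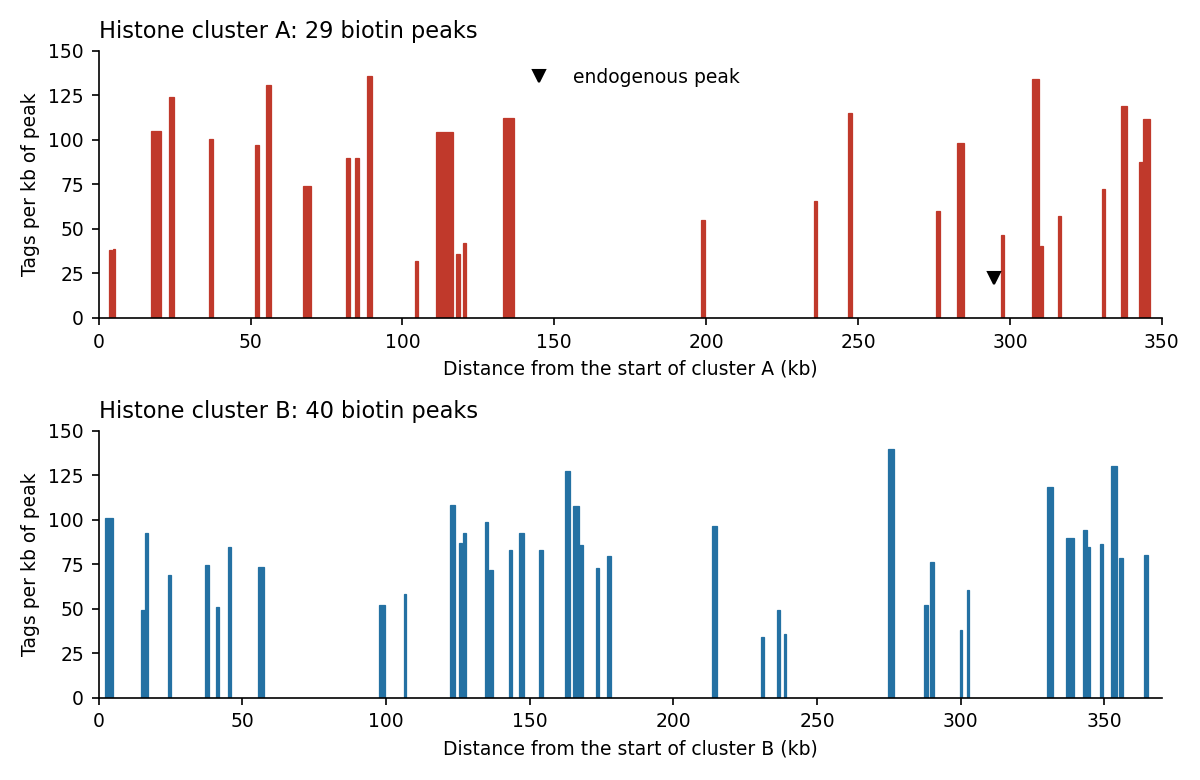
Tags per kb of each biotin peak (bar height; bar width is the width of the peak, to scale, with a thin outline) by distance from the cluster start in kb, for cluster A (upper) and cluster B (lower); the triangle is the single endogenous peak. The longest intervals without a bar are 61.7 kb in cluster A and 39.9 kb in cluster B.

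Summits within the clusters were closer to each other than those between the clusters, above all in cluster B. Against windows with at least 20 peaks, those of A were widely spaced. The median distance was 9.08 kb in cluster A (binomial interval of the median 5.55 to 14.2, 28 distances) and 5.84 kb in cluster B (3.79 to 8.95, 39 distances), against 32.5 kb (15.6 to 52.0) between the clusters. Distances ran from 1.26 to 63.1 kb in cluster A and from 0.851 to 41.6 kb in cluster B. Of the distances, 7 of 28 (25%) in A and 17 of 39 (43.6%) in B were 5 kb or less. Over other chromosome 13 windows of these lengths the median share was 22.0 and 23.5%. In windows with at least 20 peaks it was 41.7 and 42.4%. Of those, 89 of 101 had a higher share than A, and 44 of 106 a higher and 62 a lower one than B. Among windows with at least 20 peaks, 82 of 101 had a shorter median distance than A, and 45 of 106 a shorter and 61 a longer one than B, so spacing in B was in the middle of their range. Peaks up to 1 kb apart formed 25 stretches in A and 33 in B. The longest was 7.93 kb with 2 peaks and 639 tags in A, at 21900997 to 21908928, and 4.00 kb with 2 peaks and 365 tags in B, at 23852448 to 23856451.

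Peaks of the clusters were also wide. The median width was 1332 bp in A (1113 to 1945) and 1257 bp in B (1112 to 1446), against 1065 bp between the clusters (826 to 1454), 1027 bp in the rest of the chromosome and 1085 bp in the whole list. Of the 69 peaks, 49 were wider than the list median. Among windows with at least 20 peaks, 97 of 101 had a smaller median width than A and 103 of 106 than B. Among all other windows with a peak, 299 of 326 and 280 of 311 had. Of the 3 windows of each length between the clusters, 1 had a larger median than A, 1574.5 bp, and 2 a larger one than B, up to 1546 bp. The windows with 1574.5 and 1546 bp held only 4 and 5 biotin peaks. In cluster A the widest peak spanned 5694 bp at 21900997 to 21906690, with 593 tags (546 to 643) and a fold of 4.10. Next were 3705 bp at 21922982 to 21926686 with 416 tags and 3102 bp at 21807341 to 21810442 with 325 tags. In cluster B the widest were 2934 bp at 23836598 to 23839531 with 263 tags, 2677 bp at 23502235 to 23504911 with 270 tags and 2180 bp at 23597464 to 23599643 with 114 tags. The narrowest had 736 bp in A and 703 bp in B.

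Peaks of the histone clusters were dense in tags. A tag is a read placed in the peak, and tags per kb is their number divided by the width of the peak. Summed over peaks, there were 93.3 tags per kb in A (90.7 to 96.1) and 85.7 in B (83.3 to 88.2), over 49.4 and 55.1 kb of peaks, against 70.5 (67.7 to 73.3) between the clusters, 64.9 in the rest of chromosome 13 and 66.6 in the whole list. The flank before cluster A came near to cluster B, with 81.3 (77.3 to 85.5), a median of 100 tags per peak, 8 of 16 peaks with 100 tags or more and a median width of 1201 bp. Single peaks ran from 32.2 to 136 tags per kb in A and from 33.9 to 140 in B. Of the 69 peaks, 48 (69.6%, 57.3 to 80.1) stood at or above the upper quartile of the list, 66.4 tags per kb, a level that 25% of all biotin peaks reached. The number of tags per peak was higher too. The median was 123 in A and 103 in B, against 49 in the rest of the chromosome and 53 in the list, and 39 of the 69 peaks (56.5%) had 100 tags or more, against 27.4% of the list. Of all other windows with a peak, 312 of 326 had fewer tags per kb of peak than A and 289 of 311 fewer than B. The highest reached 139 and 133, and 1 of the 3 windows between the clusters exceeded each cluster, with 110 at the length of A and 98.6 at that of B. These windows between the clusters held only 4 and 5 biotin peaks. All windows with at least 20 peaks lay lower, 101 with up to 85.5 against A and 106 with up to 82.2 against B.

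Fold enrichment, the ratio that the authors list for each peak, was not high in the clusters as the tags were. Its median was 4.29 in A (3.72 to 5.08) and 3.91 in B (3.52 to 4.32), close to 4.14 in the rest of the chromosome and in the list. Of the 69 peaks, 7 (10.1%, 4.18 to 19.8) reached the upper quartile of the list, a fold of 6.03, against 25.6% of all biotin peaks and 25.2% of those on chromosome 13. Among peaks with 100 tags or more the gap was wider: 5 of 39 in the clusters (12.8%) reached that fold, against 71.6% of such peaks in the list. Their median fold was 5.03 in A and 4.25 in B, against 6.54 for the 11 such peaks between the clusters and 7.53 for 1352 in the rest of the chromosome. The windows covered at least as much as cluster A had median folds of 3.45 to 4.83, on both sides of its value, and 22 of the 24 windows covered at least as much as cluster B had a higher median than B.

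**Figure D3:**
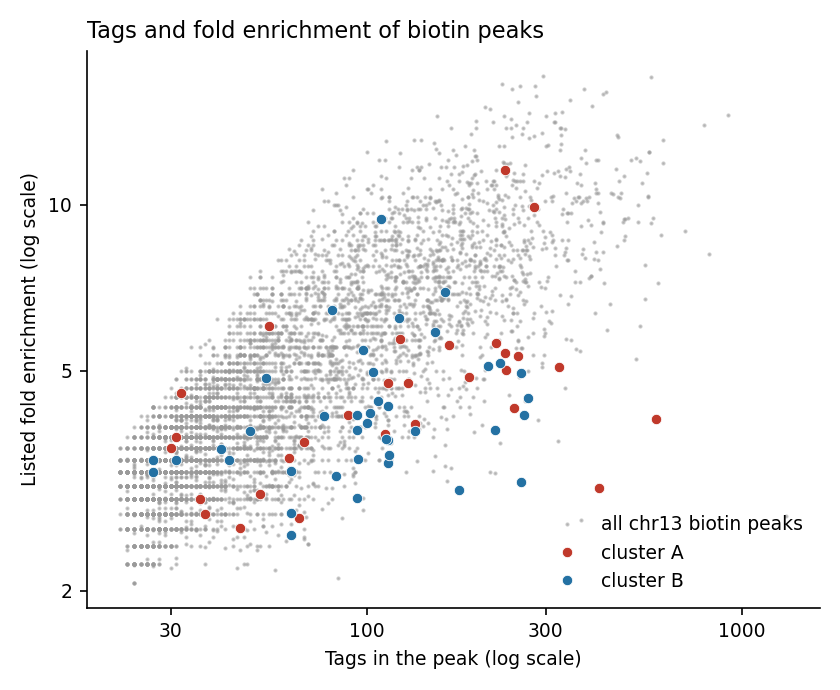
Listed fold enrichment against tags per biotin peak, both on log axes, for all 5829 peaks of chromosome 13 (grey), 29 of cluster A and 40 of cluster B. At 100 tags or more most cluster peaks lie along the lower side of the grey cloud, with a median fold of 5.03 in A and 4.25 in B.

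Only a few peaks had a large fold. In cluster A the largest fold was 11.55 at 22072566 to 22074953, with 234 tags (205 to 266), followed by 9.89 at 22097412 to 22099494, with 280 tags (248 to 315). The others of the first 6 in A had folds of 5.57 to 6.04, at 22105889, 21874389, 21813040 and 22036574. The first 3 had their summits 283 to 316 kb from the start of the cluster. In cluster B the largest fold was 9.44 at 23863923 to 23865284, with 109 tags (89.5 to 131), near the end of the window. It was followed by 6.96 at 23713380 to 23715054, 6.45 at 23516252 to 23517127 and 6.23 at 23634390 to 23635628, and the next, at 23555512 and 23625289, had 5.88 and 5.46. The lowest folds were 2.60 at 21907649, 2.71 at 22025389 and 2.76 at 21793384 in A, with 37 to 66 tags, and 2.52 at 23514901, 2.77 at 23787415 and 2.94 at 23635951 in B, with 63 to 94 tags.

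Many tags at an ordinary fold can be put in 1 number, tags per kb divided by the fold. It is high where a peak has many tags per kb for its fold. The labels and headers do not state how the authors computed the fold, so what the number measures is not known. This quantity was chosen after the values had been seen. Its median was 17.5 in A (13.9 to 22.2) and 19.2 in B (16.2 to 22.0), against 12.9 between the clusters (11.8 to 14.5), 11.5 in the rest of the chromosome and 11.6 in the list. Every one of the 326 other chromosome 13 windows with a peak had a lower median than A, up to 17.2, and all 311 had a lower median than B, up to 15.8. On all autosomes 6763 of 6802 windows lay below A and 6429 of 6443 below B. Of the 69 peaks, 49 (71.0%, 58.8 to 81.3) were in the upper decile of the list, 15.1 or more, against 10% of the list and 10.1% of chromosome 13. Between the clusters 7 of 29 peaks (24.1%) were in it, in the flank before A 3 of 16 and in the flank after B 1 of 11.

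**Figure D4:**
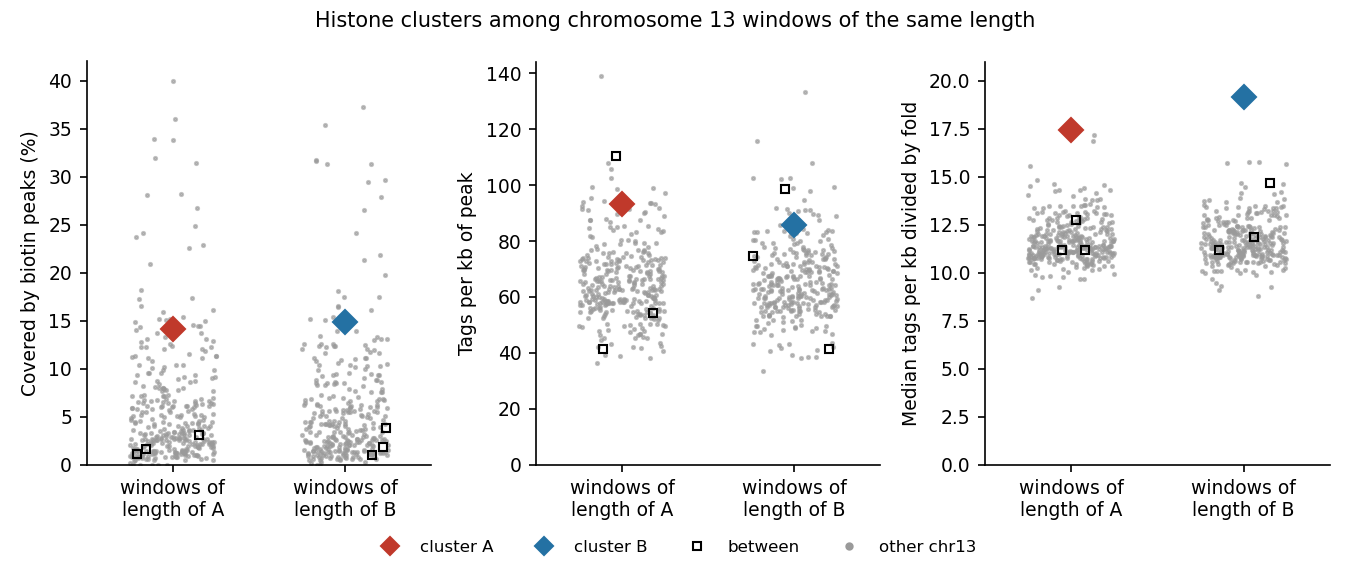
Percent covered by biotin peaks (left), tags per kb of peak (middle) and median of tags per kb divided by fold (right) in chromosome 13 windows of the length of cluster A or B; diamonds are the clusters, open squares the windows between them, and dots the other windows, spread sideways for display. The clusters lie within the range of other windows on the left and in the middle, and above all of them on the right, at 17.5 and 19.2.

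Inside the clusters this quantity varied by place. In cluster B all 8 summits from 100 to 150 kb, all 6 from 150 to 200 kb and all 3 from 250 to 300 kb were in the upper decile, but none of the 4 from 200 to 250 kb. In cluster A all 6 from 50 to 100 kb were in it. The peak with the largest fold in A, at 22072566, had 8.48, below the list median, while the wide peak at 21922982 had 36.6, the highest of A. The whole-cell extract, which would show the tag density without precipitation, was not analysed here, and what sets these values was not tested.

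Endogenous Utf1 was listed at 1 place in both clusters together. That peak lay in cluster A at 22084691 to 22085266, 576 bp wide, with 13 tags (6.92 to 22.2), a fold of 1.17 and a false discovery rate of 1.84%. Its tag count is the smallest in the endogenous list, where 4243 of the 10506 peaks, itself included, have that count. The nearest biotin peak began after a gap of 1.80 kb. Cluster B had 0 endogenous peaks, which at the limit of 3 peaks allows up to 8.11 per Mb. For both clusters the density was 1.39 per Mb (0.0352 to 7.74), and the rest of chromosome 13, at 4.21 per Mb, lay inside that interval, so a deficit was not detectable at this depth. The sequence between the clusters held 14 endogenous peaks, or 10.3 per Mb (5.63 to 17.3), with a median of 14 tags and a median fold of 1.57, in a stretch with few biotin peaks. They were unevenly spread: windows there held 0 to 9 at the length of A and 4 to 5 at that of B. Over all other chromosome 13 windows the median was 1 at both lengths, and the highest held 31 and 40. A listed false discovery rate of 0 was given to 0 peaks of either list in the clusters, against 0.159% of all biotin and 0.657% of all endogenous peaks. None of the 69 biotin peaks overlapped an endogenous one. In the whole biotin list 1.28% did, and at the limit of 3 counts 0 of 29 in A and 0 of 40 in B allow shares of up to 10.3% and 7.5%.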

How the data were processed

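Biotin-tagged and endogenous Utf1 were each precipitated from KH2 cells in 1 library, and the deposited files are 1 peak list per library. BWA 0.5.7, R 2.15.2 and the build mm9 are named per the submitters' processing notes, without roles; caller, settings and control: not given in the sources used here. Per the file headers, the authors list for each peak its width and summit, a whole-number tag count not scaled for depth, 10 times the −log10 of a p-value, a linear fold ratio, and a false discovery rate in percent. These describe peaks within a list. Library depth is unknown: 9335 tags lay in the 69 biotin peaks and 13 in the endogenous one.

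Coverage is the union of peaks in a window. Comparison windows were tiled from each cluster start between 3088035 and 120279496 on chromosome 13, leaving out those that touched a cluster. Counts carry exact Poisson intervals, shares exact Clopper-Pearson intervals and medians binomial intervals, all at 95%; where a count is 0, the limit printed is 3 counts. With 1 library per group no test was made. Peaks named were, per cluster, the 6 with the largest fold, the 3 widest, the 3 with the lowest fold, the longest stretch of peaks up to 1 kb apart, the 3 longest intervals without a peak, and every endogenous peak; peaks at the window edges and extremes of other values were added. The clusters, lists and measures were chosen with earlier results of these data known. An mm9 annotation or genome was not used here. Coverage was tested on simulated lists, and counts and covered bases of both clusters were identical with bedtools 2.31.1. Versions were matplotlib 3.10.9, scipy 1.17.1, pandas 2.3.3 and numpy 2.4.6 under Python 3.11.15. Alternatives were other membership rules, stricter lists, shifted or wider windows, and other ranking measures.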

Additional observations from a re-analysis of the deposited data

How the results depend on the processing

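The 20 results were recomputed in 56 ways: 36 values kept within their interval or within 1.5 times the count, 18 moved, and 2 changed to the other side of the share in the whole list. The intervals for coverage and for window ranks took each kb or each window as a separate draw, so they serve only as a yardstick for moves. The settings for tags per kb divided by fold and for peaks with at least 100 tags were chosen after seeing the data. At a false discovery rate of 0, which 0.159% of biotin and 0.657% of endogenous peaks have, the clusters held 0 peaks of either list. With edges 50 kb further out cluster B gained 1 endogenous peak. Without peaks below the list median of fold, coverage fell to 8.11% in A and 7.58% in B, and the median summit distance in B rose to 13.2 kb. Without the widest 10% of the list, coverage of A was 9.14% and its tags per kb 89.3. As a median over peaks, tags per kb were 89.8 in A and 83.1 in B. The share of windows covered less, 90.6 and 92.3%, was 80.7 and 81.5% over all autosomes, 96.1 and 95.5% by tags per kb of window, and 81.3 and 87.9% by number of peaks. Merged stretches had a median width of 1525 bp in B. The share of peaks in the upper quartile was 62.1% in A and 75% in B by tags per kb, above the 25% of the list, against 10.3 and 10% by fold, below the 25.6% of the list. The cause was not tested. No paired analysis was possible because each group has 1 library, and for the same reason no replicate could be left out. Positions relative to histone genes were not run. Since library depth is unknown, the lists cannot be compared in length.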
